A study of Canis lupus familiaris with 4 samples.

Results

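The genes described here are interferon-stimulated genes, whose transcription is switched on by type I or type II interferon. They were taken as all probe sets whose gene symbol on the array is 1 of 40 listed names, with the chemokine CXCL10 and the enzyme IDO1 left out. These names and the other gene lists below were chosen with earlier results of these data known. Shares of the set beside those of all genes are therefore descriptive only. Of the 40 genes, 35 had a probe set, out of 15115 genes named on the array, and these 35 genes were read by 63 of 42924 probe sets. No probe set carried the name of IFIT1, IFIT3, OASL, BST2 or SAMD9, which are not analysed here. The arrays measured dog MDCKII cells, an established epithelial line from kidney, labelled as WT for HIF1A or as HIF1A knockdown (KD). Its product, stable when oxygen is low, is part of a transcription factor that drives the hypoxia response. All cells spent 24 h in normoxia and then a further 24 h in normoxia or in hypoxia. Crossing both labels gives 4 groups of 1 array, without replicates, namely WT and KD cells in normoxia and WT and KD cells in hypoxia. Values listed without names follow that order of arrays. The sources used here do not say how the knockdown was made, whether it is 1 clone, or what the oxygen level was, and no group is labelled as having received interferon or virus.

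Interferons bind receptors at the cell surface that act through the JAK kinases on transcription factors, STAT2 among them. STAT2 works with IRF9 in a complex that binds a short element in the promoters of its target genes. The targets include enzymes and binding proteins that recognise viral RNA, proteins that block viral entry or replication, the ubiquitin-like modifier ISG15 with its ligases, and the proteasome subunits and transporter that supply peptides to class I molecules. Many of them are also transcribed at a low basal level, and some members of the set, such as IRF7, IRF9 and STAT2, are themselves parts of the pathway.

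HIF1A, the targeted gene, did not follow the knockdown label. Its brightest probe set read 3651 in the array labelled WT normoxia, 3435 in KD normoxia, 675 in WT hypoxia and 625 in KD hypoxia, so it was lower in the arrays labelled hypoxia and nearly equal between the genotype labels. Every direction below is therefore that of the labels, and if the arrays labelled KD normoxia and WT hypoxia changed places, the oxygen and genotype differences would trade places. The values are deposited intensities on a linear scale, with medians from 45.6 to 47.1 per array. Of 12 measured kidney epithelial markers, 9 exceeded an intensity of 46.3 in every array, while CDH1, PAX8 and PAX2 stayed below it. That intensity, the median of all values, served as a floor below which no size was read. Of 7 fibroblast markers 1 exceeded it in each array (PDGFRA), of 5 endothelial markers 2 (CDH5 and KDR), and of 10 leukocyte markers 3 or 4. The summed leukocyte markers ran from 501 to 579. Among them CD68 ran from 177 to 250 and NKG7 from 60 to 72, both above the floor in every array. The defining marker PTPRC ran from 44.0 to 69.3, on both sides of the floor.

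The interferon-stimulated genes were most often lowest in the array labelled WT normoxia, and their highest value lay more often in the array labelled KD hypoxia than in any other. The floor was reached by 33 of the 35 genes, 30 of them in all 4 arrays. Of the 33, 25 had their lowest value in WT normoxia, against 21.8% of all 9834 genes above the floor, and 16 had their highest value in KD hypoxia, against 23.5% of all genes. The lowest value lay in KD normoxia for 2 genes (31% of all genes), in WT hypoxia for 4 (23.8%) and in KD hypoxia for 1 (23.3%), while SOCS1 had a lowest value shared by 3 arrays. These same 16 genes were lowest in WT normoxia, a pattern shared by 10.4% of all genes. In 10 of the 33 the arrays stood in the order WT normoxia, KD normoxia, WT hypoxia, KD hypoxia from low to high, against 5.63% of all genes. That order was picked out after the values were seen. In 14 genes both hypoxia arrays lay above both normoxia arrays, against 22.8% of all genes, and 3 (ISG20, TRIM25 and PSMB8) had them below, against 19.3%. Both KD arrays lay above both WT arrays in 9, against 19% of all genes, a share of the set near that background. The 10 genes were MX2, IFI44L, ISG15, IFIT5, OAS1, IFIH1, IRF7, USP18, EIF2AK2 and DTX3L. OAS3 and ADAR stayed below the floor in every array, and no difference is read from them. IFIT2 reached the floor in 2 arrays, PSMB8 in 1 and SOCS1 in 1, and their values are given without a size. The counts in this paragraph still include them. PSMB8 stands among the 3 genes lower in hypoxia, though both its hypoxia arrays lay below the floor. IFIT2 stands among the 9 genes higher in KD, though both its WT arrays lay below the floor.

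**Figure D1:**
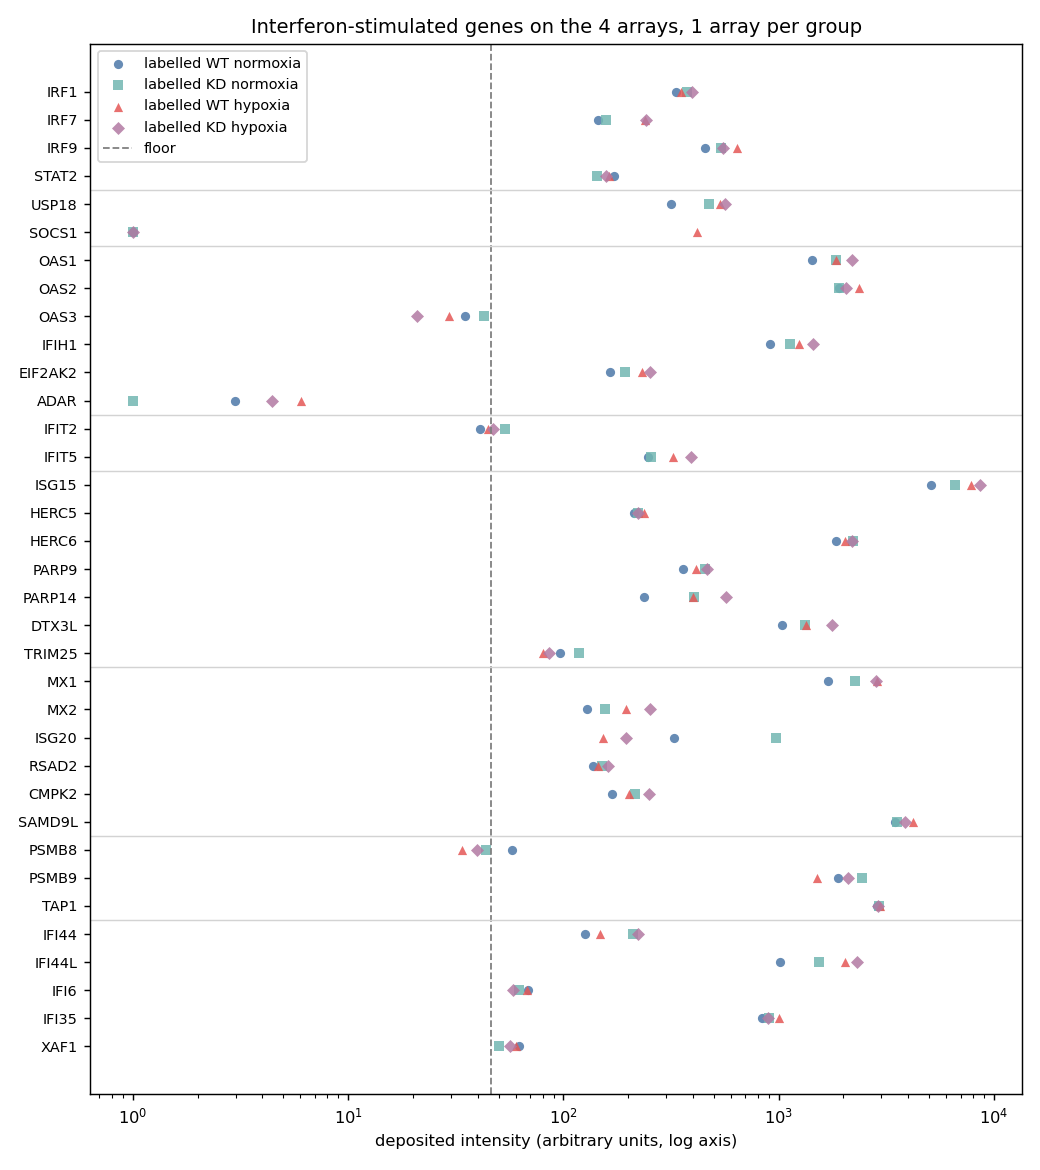
Deposited intensity (log axis) of the brightest probe set of each of the 35 interferon-stimulated genes, grouped by role between the grey lines, with 1 symbol for each of the 4 arrays and a dashed line at the floor of 46.3. In 25 of the 33 genes that reach the floor the lowest symbol is the array labelled WT normoxia, and SOCS1 stands at 1 in 3 arrays.

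Differences below are log2 values of the intensity plus 16, which understates the change of dim genes. A single difference between 2 arrays has no test, since each group has 1 array. As a scale for it, the central 95% of all 9834 genes ran from -0.62 to 0.64 for labelled hypoxia minus normoxia in WT, from -0.71 to 0.64 in KD, from -0.61 to 0.69 for labelled KD minus WT in normoxia and from -0.59 to 0.61 in hypoxia. Both labels were tested together, in an additive limma model of oxygen and genotype fitted to all 4 arrays and adjusted over all 9834 genes. It has 1 residual degree of freedom and takes most of its variance from other genes of like intensity, so its p-values do not measure the spread between cultures. "Rose" and "fell" are used only for genes with an adjusted p below 0.05 in that model. None of its calls on these genes remained when the prior variance was given no intensity trend or when genes below the floor were kept in the fit.

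Between the arrays labelled hypoxia and normoxia, the interferon-stimulated genes were mostly higher in hypoxia. In the WT pair 26 of the 33 genes above the floor were higher and 7 lower, with a median of 0.26, while over all genes 52.4% were higher and the median was 0.01. In the KD pair 22 were higher, 10 lower and 1 equal, with a median of 0.10, against 52.5% higher and a median of 0.02 over all genes. Among the 30 genes above the floor in all arrays 24 were higher and 6 lower in WT, and 22 higher and 8 lower in KD. The pairs share no array, and 20 of the 33 genes were higher in both, against 35.6% of all genes. At least 1.5-fold higher in WT were 7 genes (IFI44L, MX1, PARP14, USP18, IRF7, ISG15 and SOCS1) against 3.34% of all genes, and in KD 3 (MX2, IFI44L and IFIT5) against 3.41%, a share of the set that rests on few genes. At least 1.5-fold lower was 1 gene in each pair, ISG20, against 2.88% of all genes in WT and 4.05% in KD. ISG20 was also at least 2-fold lower in both, as were 0.569% and 0.997% of all genes. In the limma oxygen term 11 of the 33 rose and 1 fell, against 4.72% and 4.17% of all genes. Those that rose were MX1, MX2, IFI44L, ISG15, IFIT5, OAS1, IFIH1, IRF7, USP18, PARP14 and DTX3L, and the gene that fell was ISG20. At an unadjusted p below 0.05 in this limma term 15 stood higher and 2 lower, against 13.1% and 10.7% of all genes. The 15 include SOCS1, which reached the floor in 1 array only.

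Between the arrays labelled KD and WT, the genes were mostly higher in KD, more often in normoxia than in hypoxia, a contrast that was not tested. In normoxia 28 of the 33 were higher and 4 lower, with a median of 0.25, while over all genes 48.4% were higher and the median was -0.01. In hypoxia 22 were higher and 11 lower, with a median of 0.12, against 47.9% higher and a median of -0.01 over all genes. Among the 30 genes above the floor in all arrays 27 were higher and 3 lower in normoxia, and 20 higher and 10 lower in hypoxia. These pairs share no array with each other, though each shares arrays with the oxygen pairs, and 21 genes were higher in KD in both, against 31.4% of all genes. At least 1.5-fold higher in normoxia were ISG20, PARP14, IFI44 and IFI44L, 4 genes against 3.76% of all genes, and in hypoxia 0 against 2.74%. At least 1.5-fold lower were 0 genes in normoxia, against 2.82% of all genes, and 1 in hypoxia (SOCS1), against 2.59%. In the limma genotype term 6 of the 33 rose (IFI44, ISG15, ISG20, PARP14, DTX3L and PSMB9) and 0 fell, against 2.94% and 2.43% of all genes. At an unadjusted p below 0.05 in this limma term 14 stood higher and 1 lower, against 10.8% and 11.6% of all genes. The 1 lower was SOCS1, which reached the floor in 1 array only. ISG15, PARP14 and DTX3L rose in both terms, as did 0.366% of all genes.

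**Figure D2:**
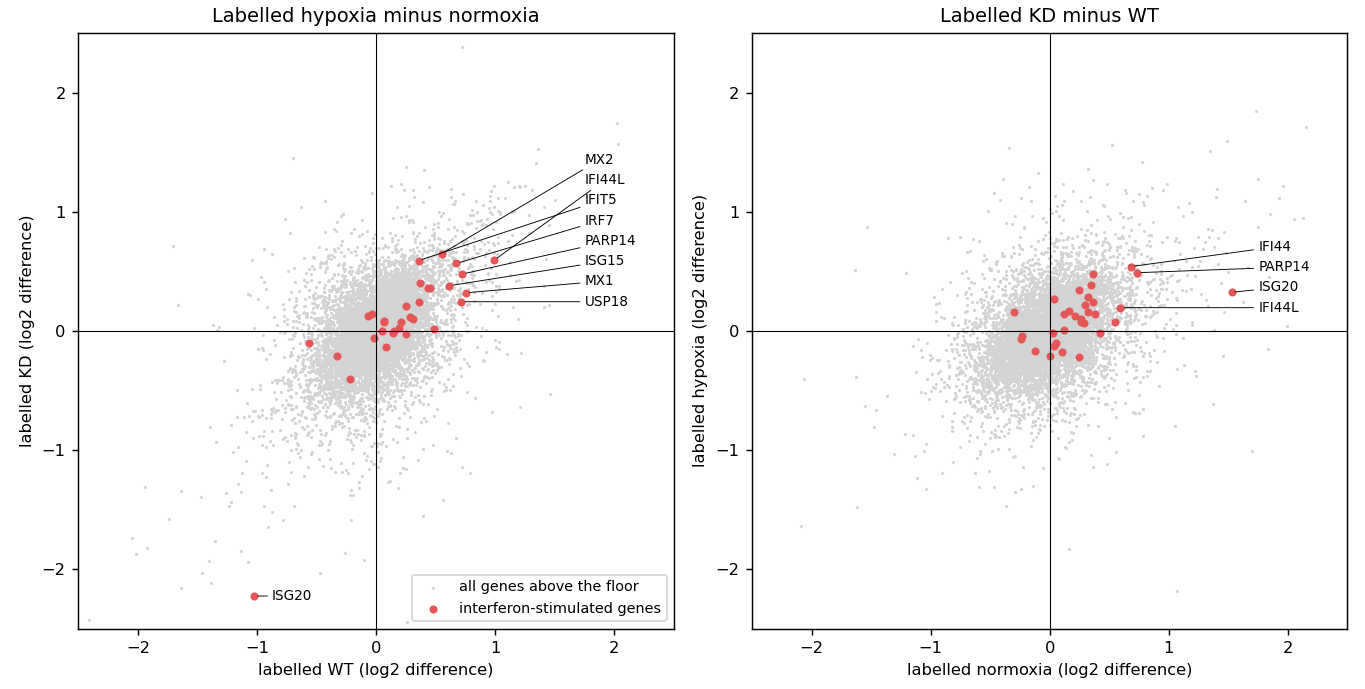
Log2 differences of the interferon-stimulated genes above the floor (red) over all 9834 genes above it (grey), with labelled hypoxia minus normoxia in WT against KD on the left and labelled KD minus WT in normoxia against hypoxia on the right. The axes leave out SOCS1 and a few other genes with larger differences, and names mark genes of the set that differ at least 1.5-fold in a pair shown. On the left 20 of the 33 genes lie in the upper right quadrant and ISG20 far to the lower left, and on the right 21 lie in the upper right.

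Among the transcription factors, IRF7 was the one that rose. IRF7, which drives the amplifying wave of interferon transcription, read 144 in WT normoxia, 158 in KD normoxia, 240 in WT hypoxia and 241 in KD hypoxia. Both arrays labelled hypoxia thus stood above both labelled normoxia, and the genotype labels were nearly level. The oxygen term was 0.62 (SE 0.12, limma adjusted p = 0.0118) and the genotype term 0.06 (adjusted p = 0.797). IRF9, the DNA-binding partner of STAT2, read 453, 541, 642 and 549 in the same order of arrays. Its difference between hypoxia and normoxia was 0.49 in WT and 0.02 in KD, and its oxygen term of 0.25 did not pass (limma adjusted p = 0.25). IRF1, an early factor of the interferon gamma response, read 333, 375, 351 and 396, so that no pair differed by more than 0.17. STAT2 read 171, 143, 162 and 158, and its probe sets differed in sign in every pair.

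Both negative regulators in the set were measured, with unlike results. USP18, the protease that removes ISG15 from proteins and holds back signalling at the receptor, read 318 in WT normoxia, 473 in KD normoxia, 533 in WT hypoxia and 563 in KD hypoxia. The array labelled WT normoxia stood apart from the other 3, with a difference of 0.72 between hypoxia and normoxia in WT and 0.25 in KD. USP18 rose in the oxygen term by 0.48 (SE 0.12, limma adjusted p = 0.0452), while its genotype term of 0.31 did not pass (adjusted p = 0.179). SOCS1, which inhibits JAK kinases, has a single probe set, which read 417 in the array labelled WT hypoxia and exactly 1 in each of the others. It reached the floor through that array alone, so no fold is given. It had to differ there, and it stands among the 26 genes higher and the 7 at least 1.5-fold higher with hypoxia in WT, and is the 1 gene at least 1.5-fold lower in KD in hypoxia. Without the genes that miss the floor in any array those 1.5-fold counts are 6 and 0. Its limma terms did not pass (adjusted p = 0.124 for oxygen and 0.141 for genotype). SOCS1 is still 1 of the 15 genes higher for oxygen, and the 1 lower for genotype, at an unadjusted limma p below 0.05.

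In their brightest probe sets the RNA sensors and oligoadenylate synthases above the floor were all higher with labelled hypoxia in both genotypes. These 4 genes were OAS1, OAS2, IFIH1 and EIF2AK2, with medians of 0.40 in WT and 0.30 in KD. Over all genes 35.6% were higher in both. The OAS1 probe sets differed in sign for hypoxia minus normoxia in KD, from -0.16 to 0.24. IFIH1, the sensor MDA5 of long double-stranded RNA, read 912 in WT normoxia, 1125 in KD normoxia, 1242 in WT hypoxia and 1450 in KD hypoxia. All 4 arrays stood apart from each other, and IFIH1 rose in the oxygen term by 0.40 (SE 0.08, limma adjusted p = 0.0179), with a genotype term of 0.26 that did not pass (adjusted p = 0.107). OAS1, which makes the second messenger that activates RNase L, read 1435, 1846, 1848 and 2190, with KD normoxia and WT hypoxia level. Its oxygen and genotype terms were equal at 0.30 (SE 0.08), and the first passed (limma adjusted p = 0.0401) while the second did not (0.0547). OAS2, a synthase of the same family, read 1908, 1911, 2369 and 2047, and neither term passed. EIF2AK2, the kinase PKR that halts translation on double-stranded RNA, read 165, 194, 232 and 254, with an oxygen term of 0.41 just short of the threshold (limma adjusted p = 0.059).

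Of the IFIT family, which bind viral RNA ends or cap structures, IFIT5 was the member with a readable level. IFIT5 read 248 in WT normoxia, 256 in KD normoxia, 323 in WT hypoxia and 393 in KD hypoxia. The normoxia arrays were level and both hypoxia arrays lay above them, by 0.36 in WT and 0.59 in KD. IFIT5 rose in the oxygen term by 0.47 (SE 0.11, limma adjusted p = 0.0308) and its genotype term of 0.16 did not pass (adjusted p = 0.451). IFIT2 read 41.0, 53.7, 44.6 and 47.4, around the floor.

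Genes of ISG15 conjugation and of the PARP9 and DTX3L complex held the 3 genes that rose in both terms. ISG15, a ubiquitin-like protein that is joined to newly made proteins, read 5085 in WT normoxia, 6627 in KD normoxia, 7806 in WT hypoxia and 8626 in KD hypoxia. The arrays were in the same order in its second probe set, at 1810, 2427, 2679 and 3881. ISG15 rose by 0.50 in the oxygen term (SE 0.06, limma adjusted p = 0.00161) and by 0.26 in the genotype term (SE 0.06, adjusted p = 0.0468). PARP14, a mono-ADP-ribosyltransferase, read 237, 405, 402 and 570, so that KD normoxia and WT hypoxia were level and lay between the other 2 arrays. It rose by 0.60 in the oxygen term (SE 0.11, limma adjusted p = 0.00943) and by 0.61 in the genotype term (SE 0.11, adjusted p = 0.0165). Its other probe set lay below the floor in every array, and with the median over both probe sets in place of the brighter one neither call remained. DTX3L, a ubiquitin ligase, read 1037, 1327, 1344 and 1763, the same shape as PARP14. It rose by 0.39 in the oxygen term (SE 0.08, limma adjusted p = 0.0173), a call lost with the median over its probe sets, and by 0.37 in the genotype term (SE 0.08, adjusted p = 0.0333).

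The remaining ligases and the partner of DTX3L differed less. PARP9, which forms a heterodimer with DTX3L, read 361 in WT normoxia, 455 in KD normoxia, 413 in WT hypoxia and 464 in KD hypoxia. Both KD arrays lay above both WT arrays, and its genotype term of 0.24 did not pass (limma adjusted p = 0.203). HERC6, a ligase of the HERC5 family, read 1852, 2219, 2041 and 2186, and HERC5, a ligase for ISG15, read 213, 222, 238 and 221, with no difference over 0.26 in either gene. TRIM25, a ligase that activates the sensor RIG-I, ran the other way from most of the set with 96.3, 119, 80.6 and 85.6. It was lower in hypoxia by 0.22 in WT and by 0.41 in KD, and its oxygen term of -0.31 did not pass (limma adjusted p = 0.256).

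Among the proteins that restrict viruses, the 2 MX genes rose with labelled hypoxia and ISG20 fell. MX1, a dynamin-like GTPase that traps viral nucleocapsids, read 1695 in WT normoxia, 2270 in KD normoxia, 2876 in WT hypoxia and 2839 in KD hypoxia. The hypoxia arrays were level with each other and above both normoxia arrays, by 0.76 in WT and 0.32 in KD. MX1 rose in the oxygen term by 0.54 (SE 0.10, limma adjusted p = 0.0109) and its genotype term of 0.20 did not pass (adjusted p = 0.278). MX2, its paralog, read 129, 156, 196 and 253 and was higher in hypoxia by 0.55 in WT and 0.65 in KD. It rose by 0.60 (SE 0.12, limma adjusted p = 0.0146), with a genotype term of 0.29 that did not pass (adjusted p = 0.184). The MX2 call was lost when the floor was raised to the 75th percentile.

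ISG20, an exonuclease of single-stranded RNA, had the widest range of the 30 genes above the floor in all arrays. Its single probe set read 326 in WT normoxia, 971 in KD normoxia, 152 in WT hypoxia and 195 in KD hypoxia. The array labelled KD normoxia was far above the others, and both arrays labelled hypoxia lay below both labelled normoxia. The oxygen labels differed by -1.02 within WT and by -2.23 within KD, and the genotype labels by 1.53 within normoxia and 0.32 within hypoxia. ISG20 fell by 1.63 in the oxygen term (SE 0.22, limma adjusted p = 0.00248) and rose by 0.93 in the genotype term (SE 0.22, adjusted p = 0.0484), a call lost with the floor at the 75th percentile. Its labelled oxygen response differed between the genotypes by 1.2 (log2), which has no test.

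The other members with antiviral roles showed small differences. CMPK2, a mitochondrial nucleotide kinase, read 168, 214, 203 and 251, and RSAD2 (viperin), which makes a chain-terminating nucleotide, read 137, 151, 144 and 161. In both genes the KD arrays lay above the WT arrays in the brightest probe set, and no term passed. The CMPK2 probe sets differed in sign for KD minus WT in hypoxia, from -0.15 to 0.29. SAMD9L, a restriction factor of poxviruses, read 3461, 3551, 4218 and 3851, with an oxygen term of 0.20 (SE 0.07, limma adjusted p = 0.0989).

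IFI44L and IFI44, related genes whose functions are less well known, were called in different terms, a contrast that was not tested. IFI44L read 1011 in WT normoxia, 1533 in KD normoxia, 2027 in WT hypoxia and 2322 in KD hypoxia, and its hypoxia minus normoxia difference of 0.99 in WT was the largest among genes of the set higher in hypoxia and above the floor in all 4 arrays. It rose in the oxygen term by 0.79 (SE 0.10, limma adjusted p = 0.00158), and its genotype term of 0.39 did not pass (adjusted p = 0.0555). IFI44 read 126, 211, 149 and 223, so that both KD arrays lay above both WT arrays, while the oxygen labels differed by 0.21 or less. IFI44 rose in the genotype term by 0.61 (SE 0.12, limma adjusted p = 0.0236) and its oxygen term was 0.14 (adjusted p = 0.532). The call on IFI44 was lost with the floor at the 75th percentile, where the gene was no longer tested. IFI35, a partner of the adaptor NMI, read 839, 903, 1005 and 888, and IFI6, a mitochondrial survival protein, read 68.7, 61.9, 67.8 and 58.7. XAF1, which binds the apoptosis inhibitor XIAP, read 62.3, 50.1, 60.4 and 56.8, and none of the 3 passed in either term.

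Of the 3 genes of antigen processing, 1 was called, in the genotype term, and 1 was below the floor in most arrays. PSMB9, an interferon gamma-induced proteasome subunit, read 1889 in WT normoxia, 2437 in KD normoxia, 1502 in WT hypoxia and 2097 in KD hypoxia. It was lower with labelled hypoxia by 0.33 in WT and 0.21 in KD, and both KD arrays lay above both WT arrays. PSMB9 rose in the genotype term by 0.42 (SE 0.07, limma adjusted p = 0.0168), and its oxygen term of -0.27 fell short (adjusted p = 0.0558). TAP1, which carries peptides into the endoplasmic reticulum, read 2850, 2910, 2945 and 2907, within 0.05 in every pair in this brightest probe set. Another TAP1 probe set, at 895, 946, 943 and 848, gave -0.16 for hypoxia minus normoxia in KD and -0.15 for KD minus WT in hypoxia. PSMB8, the subunit encoded beside TAP1, read 57.4, 43.8, 33.7 and 39.6, below the floor in 3 arrays.

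**Figure D3:**
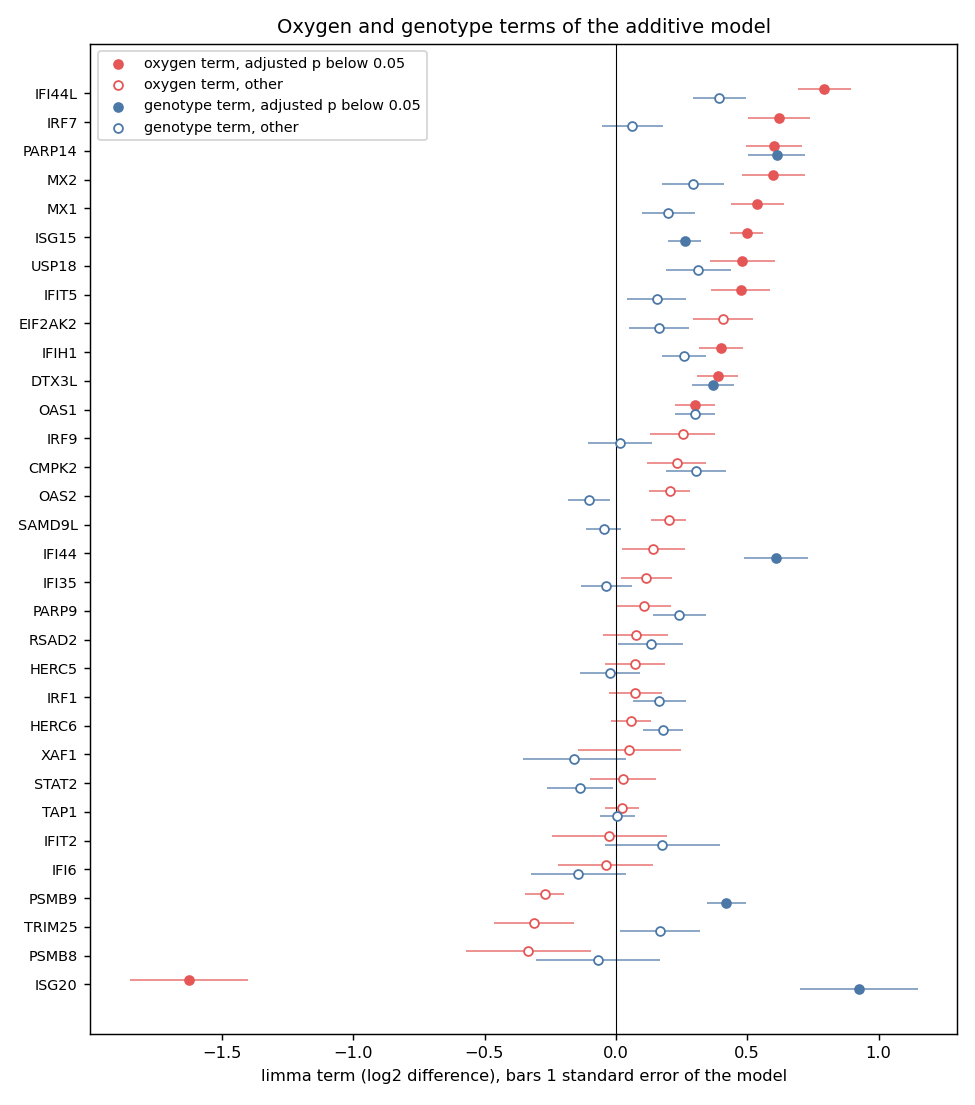
Oxygen (red) and genotype (blue) terms of the additive limma model, as log2 differences of labelled hypoxia minus normoxia and labelled KD minus WT, for 32 of the 33 interferon-stimulated genes tested (SOCS1 is left out), with bars of 1 standard error of the model. Filled symbols have an adjusted p below 0.05: 11 genes to the right and ISG20 to the left for oxygen, and 6 genes to the right for genotype.

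The signed difference between labelled hypoxia and normoxia was higher in WT than in KD for 24 of the 33 genes and lower for 9, with a median of 0.14, while over all genes 49.0% were higher and the median was -0.01. A higher signed value is not always a larger response: ISG20 was lower in hypoxia in both genotypes, and by more in KD. Among genes above the floor in all arrays the signed value was highest for ISG20 (1.2), USP18 (0.47), IRF9 (0.47), MX1 (0.44) and IFI44L (0.40). It has no test, and the same value is the KD minus WT difference in normoxia minus that in hypoxia.

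Several probe sets of 1 gene read the same RNA and are no replicates, but they show how far a value depends on the probe. Of the 35 genes, 14 had more than 1 probe set and 10 had more than 1 above the floor on all arrays. Within these 10 genes the probe sets shared a sign in 9 genes for hypoxia minus normoxia in WT, in 6 in KD, in 8 for KD minus WT in normoxia and in 7 in hypoxia. The median spread between a gene's highest and lowest probe set was 0.20, 0.32, 0.22 and 0.21 in those pairs. IFI44L kept its direction in all 3 probe sets, at 0.85 to 1.07 for hypoxia minus normoxia in WT and 0.59 to 1.02 in KD. ISG15 ran from 0.56 to 0.62 in WT and from 0.38 to 0.67 in KD. For KD minus WT in normoxia IFI44 gave 0.34 and 0.68.

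OAS1 was less even across probes. Its 4 probe sets above the floor lay at 0.18 to 0.36 for hypoxia minus normoxia in WT and at 0.36 to 0.64 for KD minus WT in normoxia. For hypoxia minus normoxia in KD they spread from -0.16 to 0.24 around 0, and the call of OAS1 in the oxygen term was lost with the median over probe sets. CMPK2 spread from -0.22 to 0.21 in that pair, and STAT2 from -0.23 to 0.41 for KD minus WT in normoxia. A further STAT2 probe set, below the floor in the KD hypoxia array, gave -0.83 for KD minus WT in normoxia. The 3 IRF1 probe sets were higher in WT hypoxia than in WT normoxia by 0.07 to 0.38, with the brightest the least changed. For KD minus WT they differed in sign, from -0.06 to 0.31 in normoxia and from -0.06 to 0.17 in hypoxia. IRF9 gave 0.19 and 0.49 in WT.

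**Figure D4:**
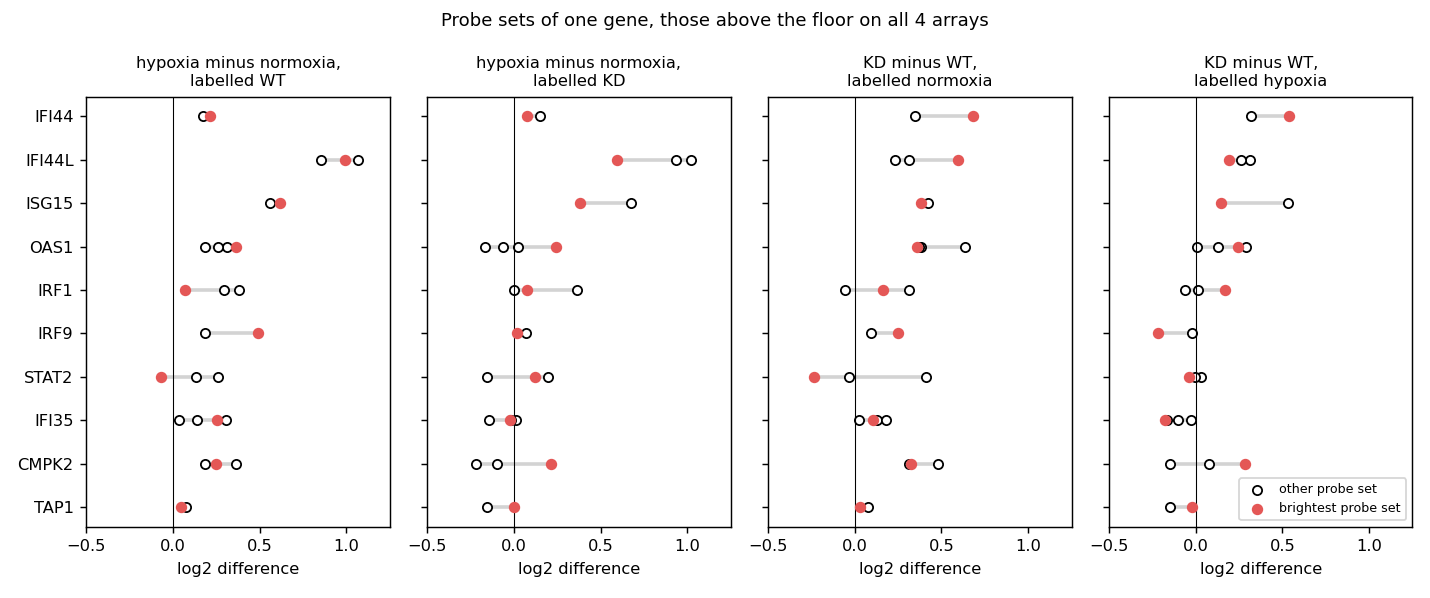
Log2 differences of each probe set above the floor on all 4 arrays, for the 10 interferon-stimulated genes with more than 1 such probe set, in the 4 labelled pairs, with the brightest probe set in red and a grey line over the range. The IFI44L, ISG15 and IFI44 probe sets lie right of 0 in every panel, while OAS1 and CMPK2 lie on both sides of 0 for hypoxia minus normoxia in KD.

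Among the genes upstream of this set, 1 interferon and 3 receptor chains were called. Values of this and the other pathway lists below are from the brightest probe set of each gene, and further probe sets were not compared. Without the floor or the intensity trend 0 of all genes were called for genotype, and oxygen calls on these lists were not followed there. Of 12 interferons and receptors listed, 9 had a probe set and 7 reached the floor. In the limma oxygen term 1 of these 7 rose and 0 fell, against 4.72% and 4.17% of all genes, and in the genotype term 2 rose and 1 fell, against 2.94% and 2.43%. At an unadjusted p below 0.05 there were 3 for oxygen and 4 for genotype, against 23.7% and 22.3% of all genes. With hypoxia 5 of the 7 were higher in WT, with a median of 0.11, and 4 in KD, with a median of 0.05. Over all genes 52.4% and 52.5% were higher, with medians of 0.01 and 0.02. For KD minus WT 3 were higher in normoxia, with a median of -0.12, and 4 in hypoxia, with a median of 0.05. Over all genes 48.4% and 47.9% were higher, each with a median of -0.01. IFNK, a type I interferon of epithelial cells, read 130 in WT normoxia, 118 in KD normoxia, 181 in WT hypoxia and 187 in KD hypoxia and rose in the oxygen term by 0.51 (SE 0.13, limma adjusted p = 0.0379). IFNB1 and IFNG stayed below the floor in every array. IFNL1, a type III interferon, read 65.7, 35.1, 46.1 and 63.6, below the floor in 2 arrays. IFNAR1, a chain of the type I receptor, read 161, 112, 243 and 147, and fell in the genotype term by 0.57 (SE 0.13, limma adjusted p = 0.0358). IFNGR2 and IL10RB, chains of the type II and type III receptors, rose in the genotype term by 0.34 (adjusted p = 0.0241) and 0.41 (adjusted p = 0.0216) in limma. IFNGR1, the other chain of the type II receptor, read 219, 198, 238 and 174, and IFNLR1, a chain of the type III receptor, lay between 57.9 and 64.9. Neither of these receptor chains was called.

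Of the JAK-STAT genes and their inhibitors, 10 of 11 were measured and 0 were called in either limma term. Over all genes 4.72% rose and 4.17% fell for oxygen, and 2.94% rose and 2.43% fell for genotype. An unadjusted limma p below 0.05 was found for 4 of the 10 for oxygen and 1 for genotype, against 23.7% and 22.3% of all genes. The kinase JAK1 read 5121, 5048, 5032 and 4678, JAK2 read 653, 654, 616 and 612, and TYK2 read 68.5, 79.7, 80.8 and 51.5. STAT3 read 1135, 849, 1199 and 1289, and the phosphatase PTPN6, which dampens JAK signalling, read 84.9, 98.3, 144 and 114. The first was 0.59 higher with hypoxia in KD and the second 0.67 higher in WT, each in 1 pair. SOCS3, an inhibitor of cytokine receptors, read 103, 137, 76.3 and 89.1, lower in both hypoxia arrays than in either normoxia array, without passing (limma adjusted p = 0.0996). Of 9 nucleic acid sensing genes, IRF3, the factor that turns on interferon genes, was the one called, where 4.17% of all genes fell. It fell in the oxygen term by 0.28 (SE 0.07, limma adjusted p = 0.0433). TLR3, an endosomal RNA receptor, read 63.6, 90.5, 97.1 and 127, the same order of arrays as ISG15, and did not pass.

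Of interferon-stimulated genes outside the set, TDRD7 and NCOA7 rose in both terms. Of 51 listed, 30 had a probe set and 24 reached the floor. In the limma oxygen term 3 rose (TDRD7, NCOA7 and SP140) and 1 fell (SHISA5), and in the genotype term 5 rose (TDRD7, NCOA7, SP100, GBP5 and NMI) and 0 fell. At an unadjusted p below 0.05 in limma 3 were higher and 4 lower for oxygen, and 5 higher and 2 lower for genotype. The all-gene shares are those given above for the set, 4.72% and 4.17% called for oxygen and 2.94% and 2.43% for genotype. Their median difference was 0.00 for hypoxia minus normoxia in WT and -0.10 in KD, against 0.26 and 0.10 for the set. With hypoxia 12 of the 24 were higher in WT and 9 in KD, against 52.4% and 52.5% of all genes. For KD minus WT in normoxia 18 of the 24 were higher, against 48.4% of all genes, with a median of 0.14, against 0.25 for the set. For KD minus WT in hypoxia 12 were higher, against 47.9% of all genes, with a median of 0.01, against 0.12 for the set. These differences between the lists, which were chosen with earlier results known, were not tested. TDRD7, a tudor-domain protein that restricts paramyxoviruses, read 115 in WT normoxia, 261 in KD normoxia, 342 in WT hypoxia and 497 in KD hypoxia, and rose by 1.17 in the oxygen term (SE 0.14, limma adjusted p = 0.00132) and by 0.80 in the genotype term (SE 0.14, adjusted p = 0.0165). NCOA7, whose interferon-induced form acts against viral entry, read 369, 605, 611 and 780 and rose by 0.53 and 0.52 in limma (adjusted p = 0.018 and 0.0314). GBP5, a guanylate-binding GTPase, read 103, 257, 95.1 and 145, the same order of arrays as PSMB9, with a genotype term of 0.87 (SE 0.17, limma adjusted p = 0.0222). SP100, a nuclear body protein, read 150, 251, 181 and 299, with both KD arrays above both WT arrays and a genotype term of 0.69 (SE 0.11, limma adjusted p = 0.013). NMI, an adaptor that binds IFI35, had a genotype term of 0.29 (limma adjusted p = 0.0378). SP140, a chromatin reader related to SP100, read 200, 193, 338 and 272 and had an oxygen term of 0.59 (SE 0.12, limma adjusted p = 0.0146).

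Of class I and antigen processing genes outside the set, 14 were above the floor. In the limma oxygen term 0 were called, while 4.72% of all genes rose and 4.17% fell. An unadjusted limma p below 0.05 for oxygen was found for 5, 2 of them higher, against 23.7% of all genes, with 13.1% higher. In the genotype term 1 rose and 0 fell, against 2.94% and 2.43% of all genes. An unadjusted limma p below 0.05 for genotype was found for 5, all of them higher, against 22.3% of all genes, with 10.8% higher. PDIA3, a chaperone of class I loading, rose in the genotype term by 0.29 (SE 0.07, limma adjusted p = 0.0358). B2M, the light chain of class I molecules, read 11428, 12643, 11481 and 12381. The median over these genes was -0.13 for hypoxia minus normoxia in WT and -0.04 in KD, against 0.01 and 0.02 over all genes. For KD minus WT it was 0.08 in normoxia and 0.07 in hypoxia, against -0.01 in each over all genes.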

How the data were processed

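Total RNA (100 ng) from dog MDCKII cells was made into biotinylated cRNA and hybridised to 1 Affymetrix array per group, per the labels' protocols. The authors deposited 1 linear intensity per probe set. The sources used here do not name the software, background correction or scaling. Means without the lowest and highest 2% of values were 310 to 315, and 1065 to 1129 values per array were exactly 1, read as listed with no level. These intensity values were turned to log2(intensity + 16) here, since the deposited scale is linear. Array symbols named 29254 probe sets with 1 gene, 439 with several and 13231 with none. The probe set with the highest mean log2 value stood for a gene. A gene was tested if at least 1 array was at or above 5.96, the median log2 value over all probe sets and arrays, which left 9834 of 15115.

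Terms were fitted with limma 3.58.1 (R 4.3.3, lmFit, eBayes with intensity trend, prior of 8.10 degrees of freedom), two-sided, with Benjamini-Hochberg adjustment at 0.05, and the script was tested on simulated data. Counts, folds and figures used Python 3.11.15. Genes of the set were described by role, in full where called, at least 1.5-fold apart in a pair with both arrays above the floor, or read by discordant probe sets. Other pathway genes were named where called or 1.5-fold apart by the same rule, with receptors and kinases in any case. One item is not reported here. The members and gene lists were chosen with earlier results of these data known. Sequences were not printed, because no table of them was used here. Other scalings, pseudocounts, floors, probe set rules and priors were tried as alternatives.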

Additional observations from a re-analysis of the deposited data

Results flagged for a closer look

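For several interferon-stimulated genes the sign of a difference between labels was not the same in both groups compared. With single arrays none of these contrasts was tested, and most are small. Each value is the WT difference between labelled hypoxia and normoxia minus the KD one, in log2. Opposite signs of KD minus WT in normoxia and hypoxia were found for MX1 (0.44), OAS2 (0.21), IRF9 (0.47), IFI35 (0.28), HERC5 (0.15), SAMD9L (0.17) and TAP1 (0.049). Opposite signs of hypoxia minus normoxia in WT and KD were found for STAT2 (-0.20), IFI35 (0.28), HERC5 (0.15), HERC6 (0.16), XAF1 (-0.18) and TAP1 (0.049). All these signs are from the brightest probe set. The IFI35 probe sets above the floor on all arrays ran from -0.14 to 0.01 for hypoxia minus normoxia in KD. Those of STAT2 ran from -0.07 to 0.26 in WT and from -0.16 to 0.20 in KD. IRF9 was higher in KD by 0.25 in normoxia and lower by 0.22 in hypoxia. MX1 was higher in KD by 0.42 in normoxia and nearly equal in hypoxia, at -0.02.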

How the results depend on the processing

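No replicate could be left out and no paired analysis was possible because each group has 1 array and the labels give no shared replicate numbers; without any 1 array the additive model has no residual degree of freedom. The alternatives were quantile normalization, median centring, cyclic loess, pseudocounts of 1 and 64, the median over probe sets, no floor, a floor at the 75th percentile and, for limma, no intensity trend. The medians of the set in the 4 pairs and in the difference between them kept their sign under those alternatives that apply to them. The median of all genes lay near 0, changed sign under some scalings, and moved by less than 0.1. Medians of role groups and pathway lists were not recomputed.

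Without the floor and without the intensity trend 0 interferon-stimulated genes rose and 0 fell in the limma oxygen term, and 0 rose in the genotype term. Unadjusted p-values below 0.05 then numbered 16 and 15 for oxygen and 10 and 9 for genotype. Under all 3 scalings and both pseudocounts each of the 12 oxygen and 6 genotype calls was kept. Rises gained under some alternatives were EIF2AK2, SAMD9L and SOCS1 for oxygen and IFI44L, OAS1 and USP18 for genotype. The median over probe sets kept 9 and 5, losing OAS1, PARP14 and DTX3L for oxygen and PARP14 for genotype, and the floor at the 75th percentile kept 11 and 4, losing MX2, IFI44 and ISG20. Those that fell for oxygen were 2 in place of 1 under all 3 scalings, both pseudocounts, the median over probe sets and the higher floor, with PSMB9 added. In the genotype term 1 fell under quantile normalization, cyclic loess and the median over probe sets, which was SOCS1. Over all genes, calls for oxygen (464 rose, 410 fell) became 742 and 775 under quantile normalization, 575 and 638 under cyclic loess, 39 and 38 without the floor and 3 and 4 without the trend. Calls for genotype (289 and 239) became 702 and 608 under quantile normalization, 553 and 379 under cyclic loess, 411 and 361 with a pseudocount of 64, 328 and 365 with the median over probe sets, 486 and 255 under median centring, and 0 and 0 without the floor or the trend. The cause was not tested, beyond the fewer or more genes that a floor leaves.

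With the floor at the 75th percentile, which left 24 genes of the set, the KD response had a median of 0.23 and 5 lower genes, the WT response had 2 lower genes, KD minus WT had 0 lower genes in normoxia and 7 in hypoxia, and 5 genes had a lower signed response in WT. With the median over probe sets the WT response had 4 lower genes, KD minus WT had 2 lower and 2 at least 1.5-fold higher in normoxia and a median of 0.075 in hypoxia, and 5 genes had a lower signed response in WT. Genes at least 1.5-fold higher in the KD response numbered 1 under quantile normalization and under cyclic loess and 0 with a pseudocount of 64, under which 2 were 1.5-fold higher for KD minus WT in normoxia.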
